A study of Mus musculus with 39 samples.

Results

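Complement is a cascade of secreted proteins that tags debris, microbes and cells for removal and releases small peptides that attract and activate leukocytes. C1q, built from the products of *C1qa*, *C1qb* and *C1qc*, opens the classical pathway, C4 and C3 are cleaved and deposited on the target, properdin (*Cfp*) stabilises the C3 convertase of the alternative pathway, the C3a and C5a receptors (*C3ar1*, *C5ar1*) read the released peptides, and the C1 inhibitor (*Serping1*) blocks the proteases of C1. In the nerve, degeneration distal to a lesion leaves myelin and axon debris, and complement deposition on that debris is known as a step in its uptake by macrophages.

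These 9 genes were chosen by name from the 55573 genes of the table, and all 9 were among the 18442 genes with enough counts to be tested. Gene counts came from RNA sequencing of whole endoneurium, the inner compartment of the mouse sciatic nerve after its sheath had been stripped, so they hold the RNA of Schwann cells, fibroblasts, vessels and immune cells together. The study asked what the leptin receptor in Schwann cells contributes to nerve repair. One sciatic nerve of each mouse was crushed, and the crushed (injured) and the contralateral (healthy) nerve were collected at 2 or 4 weeks post crush (wpc).

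Control mice (*Lepr*-ctrl, *Lepr* fl/fl) carried the floxed leptin receptor gene without Cre, and mutant mice (*Lepr*-cKO, *Lepr* fl/fl::*Dhh*-Cre) carried the same floxed alleles with a Cre driven by *Dhh*, which recombines in Schwann cells from embryonic life onward. The mutants lose exon 1 of *Lepr* in those cells and still make a shortened transcript. All mice were adult and both sexes were used. At 2 wpc there were 5 healthy and 5 injured *Lepr*-ctrl nerves and 6 healthy and 5 injured *Lepr*-cKO nerves, and at 4 wpc there were 5 healthy and 4 injured nerves of each genotype. These 39 libraries came from 22 mice, with both nerves sequenced in 17 of them, and different mice were used at the 2 times. All labelled libraries were used, and some groups hold more nerves than the number per group in the study's methods. Animals are named here by genotype and animal number. The healthy nerve came from an operated animal, and no nerve of an animal without surgery is part of the comparison.

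Library totals ranged from 10905806 to 45016322 counts, with a median of 27752451, and the smallest libraries were among the injured nerves at 4 wpc. Levels are given as CPM (counts per 1e6 counts of the library, after edgeR's TMM scaling), 1 CPM stood for 10.9 counts in the smallest library, and the lowest count of any of the 9 genes in any library was 35, so none of them was near the detection limit. *Lepr* itself had 5.79 to 14.7 CPM in healthy and 20.8 to 121 CPM in injured nerves, with overlapping genotypes at each time. The counts are per gene and do not separate the deleted exon, so the deletion was not tested. By qPCR, the study reports less *Lepr* mRNA in injured mutant than in injured control endoneuria at the earlier time. Why the genotypes overlapped in the counts was not tested. The 8 Schwann cell markers summed to 60500 to 82500 CPM in healthy and 9910 to 60300 CPM in injured nerves, and 12 macrophage markers to 240 to 700 and 851 to 4080 CPM. Such a sum weighs its most abundant genes most. Among the macrophage markers the highest count in any library was 53961 for *Lyz2*, 10509 for *Mertk* and at most 4824 for any other. The 6 hepatocyte markers, from the organ that makes most circulating complement, summed to at most 1.81 CPM in any library. One injured *Lepr*-cKO nerve at 2 wpc, from animal cKO-126, stood apart with 38100 CPM over 9 skeletal muscle markers, against at most 34.9 CPM in every other library, and its effect on *C3*, on *Serping1* and on the counts of called genes is given beside them.

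In the results below a gene is called higher or lower only where edgeR's quasi-likelihood test gave a Benjamini-Hochberg adjusted p under 0.05 over all tested genes and the log2 fold change was beyond 1 in either direction. In *Lepr*-ctrl nerves at 2 wpc, injury raised 5 of the 9 genes (*C1qa*, *C1qb*, *C1qc*, *Cfp* and *C3ar1*) and lowered 2 (*C3* and *C4b*). The same 5 rose and the same 2 fell in *Lepr*-cKO nerves at 2 wpc. At 4 wpc 6 genes rose in each genotype, *C5ar1* being added, and 1 fell, *C4b*. The share of all tested genes that passed was 19.8% for higher and 14.3% for lower in *Lepr*-ctrl at 2 wpc, 20.1% and 15.9% in *Lepr*-ctrl at 4 wpc, 20.9% and 13.4% in *Lepr*-cKO at 2 wpc, and 16.8% and 10.8% in *Lepr*-cKO at 4 wpc. The median log2 fold change of the 9 genes was 2.47, 2.198, 1.87 and 2.17 in the same order, beside 0.08, 0.02, 0.10 and 0.06 over all tested genes. Because the nerve is sequenced whole, more cells of a type and more RNA per cell cannot be told apart in any of these values.

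**Figure D1:**
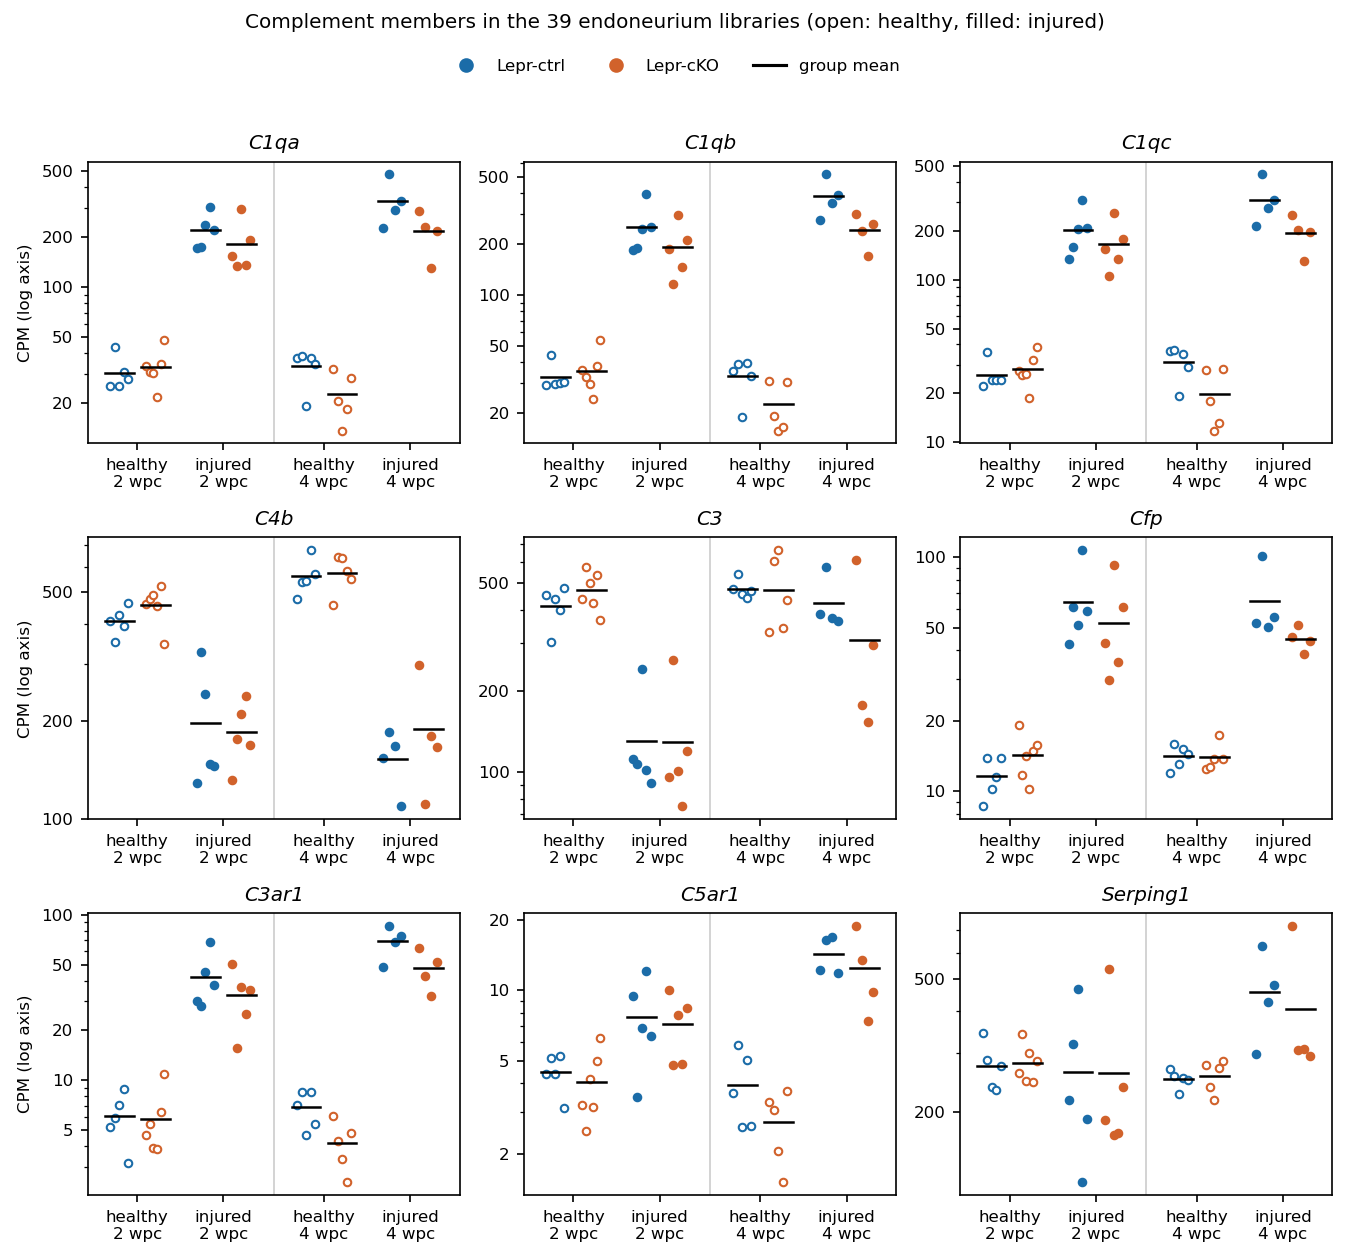
CPM (log axis) of the 9 complement genes in every library, 1 panel per gene, by genotype, nerve and time, with open points for healthy nerves, filled points for injured nerves and a black line at the group mean. *C1qa*, *C1qb*, *C1qc*, *Cfp* and *C3ar1* are higher in every injured group than in the healthy nerves beside it, *C4b* is lower, and *C3* is low in the injured nerves at 2 wpc and overlaps with the healthy nerves at 4 wpc.

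The 3 chains of C1q were called higher after injury in both genotypes at both times. In healthy *Lepr*-ctrl nerves at 2 wpc *C1qa* had 25.4, 25.6, 27.9, 30.7 and 43.6 CPM, and in the injured nerves 172.0, 176.5, 220.1, 236.8 and 303.4 CPM. The lowest injured nerve was above the highest healthy one, and the log2 fold change was 2.85 with a standard error (SE) of 0.27 (edgeR adjusted p = 3.3e-11). At 4 wpc the healthy *Lepr*-ctrl nerves had 19.2, 34.5, 37.4, 37.7 and 38.8 CPM and the injured ones 228, 293, 329 and 479 CPM, a log2 fold change of 3.31 (SE 0.28). In *Lepr*-cKO mice *C1qa* went from 21.8 to 48 CPM (median 32.2, 6 nerves) to 134, 137, 154, 194 and 297 CPM at 2 wpc. At 4 wpc it went from 13.7, 18.6, 20.6, 28.4 and 32.1 to 131.04, 218.5, 230.3 and 289.1 CPM. Healthy and injured nerves did not overlap in either genotype at either time, and the log2 fold changes of the mutants were 2.46 (SE 0.25) and 3.26 (SE 0.28).

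*C1qb* and *C1qc* followed the same course. *C1qb* rose by 2.95 and 3.53 on the log2 scale in *Lepr*-ctrl at 2 and 4 wpc and by 2.42 and 3.42 in *Lepr*-cKO, and *C1qc* by 2.96, 3.32, 2.56 and 3.30, with SEs from 0.25 to 0.29. In the 17 mice with both nerves, each chain was higher in the injured nerve of every animal, by at least 1.84 on the log2 scale. Over all libraries *C1qb* counts were 1.07 ± 0.103 times (SD, n = 39 libraries, range 0.868 to 1.31) and *C1qc* counts 0.894 ± 0.0717 times (range 0.705 to 1.02) those of *C1qa*. The ratio of *C1qb* to *C1qa* at 4 wpc was higher in injured than in healthy nerves, 1.17 ± 0.0645 (n = 4) against 0.987 ± 0.0407 (n = 5) without overlap in *Lepr*-ctrl and 1.14 ± 0.126 against 0.999 ± 0.104 with overlap in *Lepr*-cKO, and this difference was not tested. The library with the most *C1qa* was also the one with the most *C1qb* and *C1qc* in each of the 4 injured groups.

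The genes lie side by side on the minus strand of mouse chromosome 4 (GRCm38), *C1qb* at chr4:136880129-136886187, *C1qc* at chr4:136889804-136893065 and *C1qa* at chr4:136895917-136898803. The sequences of 2 of their starts are shown because these genes rose together. They run 5′ to 3′ from 250 bases before to 50 bases after the start of the RefSeq transcript (GRCm38.p6), and capitals mark GAGGAA, the core read by the myeloid transcription factor PU.1, or its reverse complement TTCCTC.
C1qb (chr4:136886151-136886450): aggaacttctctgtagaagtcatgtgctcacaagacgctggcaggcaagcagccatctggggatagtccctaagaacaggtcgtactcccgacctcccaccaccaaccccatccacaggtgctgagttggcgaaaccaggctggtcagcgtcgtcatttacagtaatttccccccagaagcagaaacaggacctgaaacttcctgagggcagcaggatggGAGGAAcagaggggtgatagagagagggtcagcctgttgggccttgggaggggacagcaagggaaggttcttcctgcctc
C1qc (chr4:136892865-136893164): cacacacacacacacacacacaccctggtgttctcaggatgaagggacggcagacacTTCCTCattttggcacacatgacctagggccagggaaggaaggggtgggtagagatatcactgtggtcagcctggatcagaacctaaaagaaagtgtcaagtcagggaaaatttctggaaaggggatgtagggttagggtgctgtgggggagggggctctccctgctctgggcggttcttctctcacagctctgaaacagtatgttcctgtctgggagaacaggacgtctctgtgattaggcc
*C1qb* held 1 core on its own strand, 30 bases before the start, and *C1qc* 1 on the opposite strand, 193 bases before it. Of all 32851 promoters of this length, 28.3% held the core on either strand, so the match is a description of these letters only, and no *C1qa* sequence was used here.

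**Figure D2:**
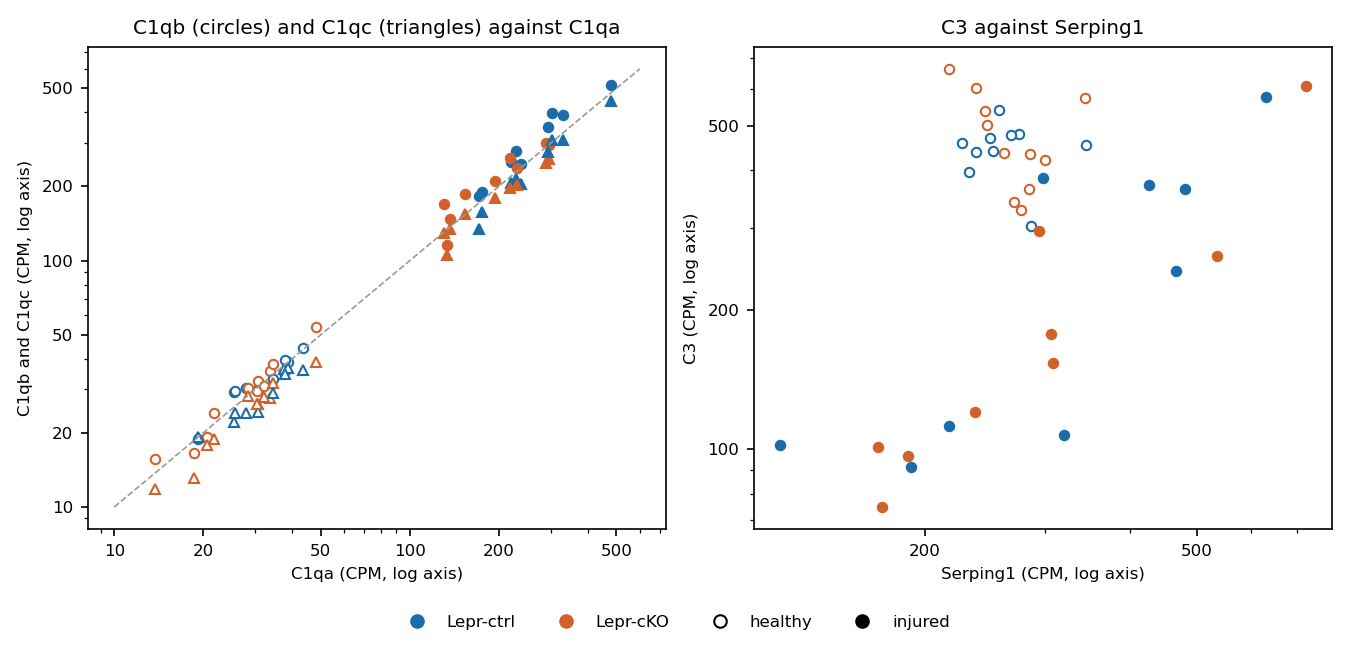
Left, *C1qb* (circles) and *C1qc* (triangles) against *C1qa* in CPM on log axes, with a dashed line of equal values, and right, *C3* against *Serping1*, 1 point per library coloured by genotype, open for healthy and filled for injured nerves. The C1q chains lie along the line in all 39 libraries, and the 4 libraries with the most *C3* in their injured group also have the most *Serping1*.

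*C4b*, which encodes the C4 protein that follows C1 in the classical pathway, moved against C1q. Healthy *Lepr*-ctrl nerves had 351, 394, 407, 425 and 462 CPM at 2 wpc and injured ones 129.1, 145.0, 147.1, 242.1 and 328.5 CPM. At 4 wpc the healthy nerves had 476, 539, 542, 571 and 675 CPM and the injured ones 109, 154, 167 and 185 CPM. No injured nerve reached the lowest healthy nerve, and *C4b* fell by 1.04 (SE 0.21, adjusted p = 8.12e-05) and by 1.87 (SE 0.24, adjusted p = 2.8e-08) on the log2 scale. In *Lepr*-cKO nerves it went from 346 to 522 CPM (median 469) to 131.6, 169.3, 175.6, 211.2 and 238.8 CPM at 2 wpc, and from 458, 551, 582, 639 and 643 to 111, 166, 180 and 298 CPM at 4 wpc. These were decreases of 1.31 (SE 0.21) and 1.61 (SE 0.24), and *C4b* was lower in the injured nerve of all 17 mice. The value at 2 wpc in *Lepr*-ctrl lies near the fold threshold, and without the healthy nerve of animal ctrl-147 or the injured nerve of animal ctrl-123, ctrl-144 or ctrl-147 it became -0.99, -0.93, -0.95 and -0.93 in turn, with adjusted p from 0.000327 to 0.000531. *C4b* (chr17:34728380-34743882) shares 34.6% of its 50-base windows with the neighbouring *C4a*, so part of its reads could be placed on either gene, while *C4a* was listed at 0.765 to 3.5 CPM.

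*C3*, the hub on which all pathways meet, was the only member whose response to injury was called different between the 2 times. In *Lepr*-ctrl mice at 2 wpc it went from 303, 397, 438, 453 and 479 CPM in healthy nerves to 91.3, 102, 107, 112 and 242 CPM in injured ones, a fall of 1.66 on the log2 scale (SE 0.31, adjusted p = 2.25e-05). At 4 wpc the healthy nerves had 441, 458, 470, 476 and 540 CPM and the injured ones 364, 372, 385 and 576 CPM. These groups overlapped, and the log2 fold change of -0.17 (SE 0.32) did not pass (adjusted p = 0.661). The response at 4 wpc minus that at 2 wpc was 1.49 (SE 0.44, adjusted p = 0.0294), in a comparison in which 4.42% of all genes were called. With the animal as a replicate block, in which the 2 nerves of a mouse are compared with each other, it was 1.45 and did not pass (adjusted p = 0.0833). It also lost its call when any 1 of 5 libraries was left out, the healthy nerve of animal ctrl-120 or ctrl-173 or the injured nerve of animal ctrl-123, ctrl-147 or ctrl-171, with values of 1.44, 1.45, 1.43, 1.37 and 1.29 and adjusted p from 0.0513 to 0.0878.

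In *Lepr*-cKO mice *C3* went from 365 to 573 CPM (median 469) in healthy nerves to 74.8, 96.3, 100.5, 120.01 and 260.8 CPM in injured ones at 2 wpc, where it fell by 1.86 (SE 0.31, adjusted p = 2.79e-06) and, without the injured nerve of animal cKO-126, by 2.26 (adjusted p = 5.15e-08). At 4 wpc the healthy nerves had 329, 341, 433, 603 and 663 CPM and the injured ones 152.5, 176.9, 296.4 and 608.6 CPM. The log2 fold change was then -0.62 (SE 0.33, adjusted p = 0.107), and without the nerve at 609 CPM, from animal cKO-169, it became -1.18 with adjusted p = 0.00244. The difference between the times was 1.24 (SE 0.44, adjusted p = 0.14), in a comparison that called 1.42% of all genes. It became 1.62 (adjusted p = 0.0165) without the injured nerve of animal cKO-126, which held skeletal muscle RNA and the highest *C3* of its group.
C3 (chr17:57228087-57228386): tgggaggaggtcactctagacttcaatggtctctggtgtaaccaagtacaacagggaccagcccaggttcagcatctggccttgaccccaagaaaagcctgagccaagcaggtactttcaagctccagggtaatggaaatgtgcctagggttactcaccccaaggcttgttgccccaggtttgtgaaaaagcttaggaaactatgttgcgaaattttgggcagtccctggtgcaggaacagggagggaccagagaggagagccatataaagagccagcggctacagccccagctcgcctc
The *C3* start is shown beside those of C1q as a gene that fell at 2 wpc (gene at chr17:57203970-57228136). It held no PU.1 core, and its own strand held TATAAA, as did 13.6% of all promoters on either strand.

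Properdin, the stabiliser of the alternative convertase and a product of myeloid cells, rose while *C3* did not. *Cfp* had 8.61, 10.2, 11.5, 13.8 and 13.9 CPM in healthy and 42.5, 51.5, 58.6, 61.1 and 107 CPM in injured *Lepr*-ctrl nerves at 2 wpc. At 4 wpc it had 12, 13.1, 14.4, 15.2 and 15.9 CPM in healthy and 50.3, 52.2, 55.4 and 101 CPM in injured nerves. The groups did not overlap, and the log2 fold changes were 2.47 (SE 0.25, adjusted p = 1.97e-10) and 2.20 (SE 0.26, adjusted p = 4.85e-09). In *Lepr*-cKO nerves *Cfp* went from 10.2 to 19.1 CPM (median 14.5) to 29.9, 35.6, 43, 61 and 92.4 CPM at 2 wpc and from 12.5, 12.7, 13.7, 13.7 and 17.3 to 38.5, 43.8, 45.5 and 51.2 CPM at 4 wpc. The corresponding increases were 1.87 (SE 0.23) and 1.68 (SE 0.25), again without overlap.
Cfp (chrX:20931506-20931805): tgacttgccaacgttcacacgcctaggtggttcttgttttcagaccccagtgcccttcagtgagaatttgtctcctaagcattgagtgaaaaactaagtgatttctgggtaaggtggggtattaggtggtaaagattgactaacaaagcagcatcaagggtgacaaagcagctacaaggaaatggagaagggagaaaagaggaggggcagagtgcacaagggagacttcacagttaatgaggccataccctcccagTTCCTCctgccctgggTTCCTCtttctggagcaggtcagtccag
The *Cfp* start (gene at chrX:20925454-20931555) was chosen for its match. It held 2 PU.1 cores on the opposite strand, both downstream of the start, at 6 and 22 bases. A link between the core and the rise was not tested.

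The receptor of C3a rose about as much as C1q. *C3ar1* had 3.16, 5.25, 5.92, 7.09 and 8.89 CPM in healthy and 28.2, 30, 37.4, 45.1 and 68.8 CPM in injured *Lepr*-ctrl nerves at 2 wpc, and 4.7, 5.44, 7.12, 8.5 and 8.5 against 48.2, 68.6, 74.1 and 85.5 CPM at 4 wpc. The log2 fold changes were 2.78 (SE 0.32, adjusted p = 2.84e-09) and 3.33 (SE 0.33, adjusted p = 1.95e-10). In *Lepr*-cKO nerves it went from 3.86 to 10.9 CPM (median 5.04) to 15.7, 25, 35.2, 36.7 and 50.4 CPM at 2 wpc and from 2.42, 3.35, 4.29, 4.81 and 6.05 to 32.3, 42.7, 51.7 and 63.2 CPM at 4 wpc, increases of 2.47 (SE 0.29) and 3.50 (SE 0.34). Healthy and injured nerves did not overlap in any of the 4 comparisons. The RefSeq promoter of *C3ar1* (gene at chr6:122847138-122856161) held no PU.1 core in the same window, although the gene rose with C1q. That of *C5ar1*, which was called higher at 4 wpc, held none either.

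The C5a receptor was called at 4 wpc and not at 2 wpc. *C5ar1* (chr7:16246743-16259540) had 3.12, 4.39, 4.4, 5.15 and 5.22 CPM in healthy and 3.48, 6.38, 6.89, 9.41 and 12.1 CPM in injured *Lepr*-ctrl nerves at 2 wpc. The groups overlapped, and the log2 fold change of 0.77 (SE 0.30, adjusted p = 0.0242) was below the fold threshold. At 4 wpc the values were 2.6, 2.62, 3.63, 5.03 and 5.83 against 11.8, 12.2, 16.4 and 16.8 CPM, without overlap and with a log2 fold change of 1.86 (SE 0.32, adjusted p = 5.99e-06). In *Lepr*-cKO nerves the values were 2.5 to 6.26 CPM (median 3.71) against 4.8, 4.82, 7.82, 8.38 and 9.99 CPM at 2 wpc, a log2 fold change of 0.82 (SE 0.29, adjusted p = 0.0119). At 4 wpc they were 1.51, 2.06, 3.08, 3.32 and 3.72 against 7.41, 9.85, 13.4 and 18.8 CPM, a log2 fold change of 2.17 (SE 0.32, adjusted p = 9.36e-07). The response at 4 wpc minus that at 2 wpc was 1.09 (SE 0.44, adjusted p = 0.111) in *Lepr*-ctrl and 1.35 (SE 0.43, adjusted p = 0.0935) in *Lepr*-cKO. With the replicate block the same differences were 1.41 (adjusted p = 0.0213) and 1.39 (adjusted p = 0.0447). Which of *C3* and *C5ar1* passes in *Lepr*-ctrl therefore depended on the pairing.

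*Serping1* (chr2:84765387-84775444) was not called in any comparison. At 2 wpc it had 232, 238, 275, 286 and 344 CPM in healthy and 122.6, 191.0, 216.8, 320.0 and 466.5 CPM in injured *Lepr*-ctrl nerves, with a log2 fold change of -0.06 (SE 0.28, adjusted p = 0.857). The injured nerves lay on both sides of the healthy ones. At 4 wpc the healthy nerves had 227, 249, 252, 257 and 268 CPM and the injured ones 298, 426, 481 and 631 CPM, which did not overlap, and the log2 fold change of 0.87 (SE 0.30, adjusted p = 0.0113) stayed below the fold threshold. In *Lepr*-cKO nerves the values at 2 wpc were 245 to 343 CPM (median 272) against 170.8, 173.1, 189.2, 237.1 and 535.7 CPM, and at 4 wpc 217, 238, 270, 277 and 285 against 294, 306, 308 and 722 CPM. The log2 fold changes were -0.10 (SE 0.27, adjusted p = 0.758) and 0.66 (SE 0.30, adjusted p = 0.0584), again without overlap at 4 wpc. Without the injured nerve of animal cKO-126, which had the 536 CPM, the value at 2 wpc was -0.52 (adjusted p = 0.0581).

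**Figure D3:**
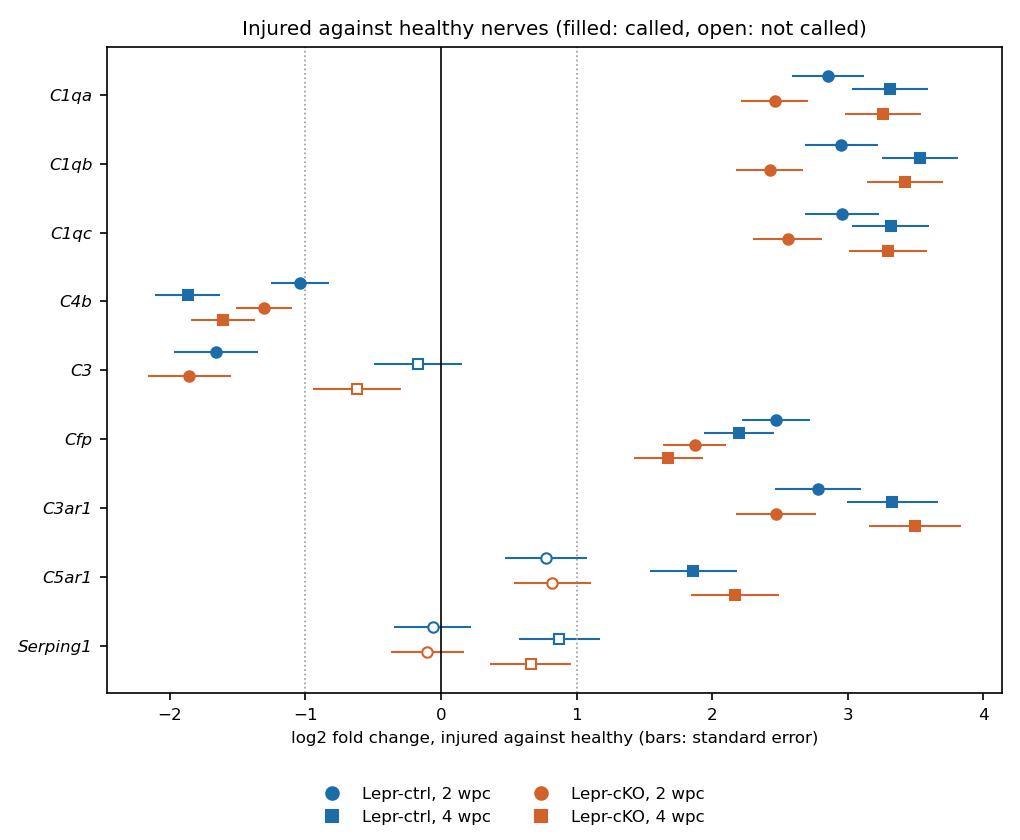
Log2 fold change of injured against healthy nerves (points) with its standard error (bars) for the 9 genes, with circles for 2 wpc and squares for 4 wpc, coloured by genotype, and filled where the gene was called. The C1q chains and *C3ar1* lie between 2.42 and 3.53 in all 4 comparisons, *C4b* between -1.87 and -1.04, and *C3* moves from -1.66 and -1.86 at 2 wpc to -0.17 and -0.62 at 4 wpc.

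The injured nerves that were highest in *C3* were also highest in *Serping1*. In each of the 4 injured groups the nerve with the most *C3* was also the nerve with the most *Serping1*, which held in 1 of the 4 healthy groups. They were the nerves of animals ctrl-131 and cKO-126 at 2 wpc (*C3* 242 and 261 CPM, *Serping1* 467 and 536 CPM) and of animals ctrl-171 and cKO-169 at 4 wpc (*C3* 576 and 609 CPM, *Serping1* 631 and 722 CPM). The 8 fibroblast markers were highest of their group in 3 of these 4 nerves, at 10300, 7020 and 13700 CPM, and not in animal cKO-126, where the highest was another nerve with 9470 CPM. C1q did not share that order at 2 wpc, where other nerves had the most *C1qa*, *C1qb* and *C1qc* and the nerve of animal cKO-126 had the lowest *C1qa*, *C1qb*, *C1qc*, *C3ar1*, *C5ar1* and *Cfp* of its group and the lowest macrophage marker sum, 851 CPM. The part of fibroblast or muscle RNA in these values was not tested. The nerves of animals ctrl-171 and cKO-169 at 4 wpc also had the most *C1qa*, *C1qb*, *C1qc*, *C3ar1* and *C4b* of their groups. That of ctrl-171 had the most *Cfp* as well, and that of cKO-169 the most *C5ar1*. At 4 wpc the shared highest nerve was thus not particular to *C3* and *Serping1*. In 3 of the 4 injured groups the nerve with the most C1q also had the highest macrophage sum, 3360 CPM in animal ctrl-144, 4080 CPM in animal ctrl-171 and 2560 CPM in animal cKO-128. The exception was *Lepr*-cKO at 4 wpc, where animal cKO-169 had the most C1q with a sum of 1960 CPM and animal cKO-177 the highest sum, 2240 CPM. These sums weigh the markers by their counts, which reached their highest value for *Lyz2*, and the order without *Lyz2* was not tested.

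The macrophage markers were set beside the members because C1q, properdin and both receptors are known products of macrophages. In *Lepr*-ctrl nerves at 2 wpc, 7 of the 12 markers were called higher after injury, and 2, *Mertk* (-1.56) and *Cd163* (-2.76), were called lower. The shares over all tested genes were 19.8% and 14.3%. Which cells carried *Mertk* and *Cd163* was not tested, and their falls lower the mean of the 12 markers in injured nerves. Against the mean of the 12 markers within a library, the log2 CPM of *C1qa* stood 1.03 to 1.29 above in the means of the 4 healthy groups and 2.18 to 2.44 above in the injured ones. *C3ar1* went from 1.14 to 1.39 below to between 0.23 below and level. *C5ar1* went from between 1.69 and 2.00 below to between 1.98 and 2.49 below, so it did not gain on the markers. *Cfp* lay within 0.61 of them in all 8 groups, and its course differed between the times. At 2 wpc it went from -0.33 to 0.61 in *Lepr*-ctrl and from 0.09 to 0.44 in *Lepr*-cKO. At 4 wpc it went from -0.07 to -0.17 in *Lepr*-ctrl and from 0.39 to -0.05 in *Lepr*-cKO. The Schwann cell marker sum, like *C4b*, was lower in every injured than in every healthy nerve (at most 60300 against at least 60500 CPM), and its part in the values of *C4b* was not tested.

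Set per kilobase of exon, which is the only scale on which different genes are compared here, *Serping1* had the highest mean in every healthy group with 108 to 120 CPM per kb. It was followed by *C3* and *C4b* with 71.6 to 101, *C1qa* and *C1qb* with 20.7 to 32.7, *C1qc* with 10.3 to 16.2, *Cfp* with 6.67 to 8.24 and the receptors with 0.972 to 1.73. At 4 wpc *Serping1* was above *C4b* in 4 of 5 healthy *Lepr*-ctrl and 3 of 5 healthy *Lepr*-cKO nerves, so its lead at that time is not settled. *C3* and *C4b* traded places between the times, and *C3* was above *C4b* in 4 of 5 healthy *Lepr*-ctrl nerves at 2 wpc while *C4b* was above *C3* in 3 of 5 at 4 wpc, so their order is not settled. In the injured nerves *C1qa* and *C1qb* had the highest means, with up to 353 CPM per kb, and *Serping1* came next with 112 to 197. In injured *Lepr*-cKO nerves at 4 wpc *C1qb* was above *C1qa* in 2 of 4 and *C1qa* above *Serping1* in 2 of 4, so the order of these 3 is not settled there. *Serping1* was above *C1qc* in every injured nerve at 4 wpc, but in 3 of 5 *Lepr*-ctrl and 4 of 5 *Lepr*-cKO nerves at 2 wpc, so that order is not settled. *C1qb* was above *C1qa* in 4 of 4 injured *Lepr*-ctrl nerves at 4 wpc, but *C1qa* was above *C1qb* in 2 of 5 *Lepr*-cKO nerves at 2 wpc. *C5ar1* was last in all 4 injured groups with 2.79 to 5.57 CPM per kb, below *C3ar1* in every injured nerve. With the longest transcript as the length in place of all exons, *Serping1* took the first place in injured *Lepr*-cKO nerves at 4 wpc.

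Loss of *Lepr* from Schwann cells was the study's main contrast, and none of the 9 genes was called between the genotypes. In injured nerves 0.569% of all genes were called at 2 wpc and 0.45% at 4 wpc, and in healthy nerves 0.00542% at each time. At 2 wpc the log2 fold changes of the 9 genes in injured nerves lay between -0.41 and -0.01 with a median of -0.28, and those of *C3* and *Serping1* crossed to the other side of 0 with DESeq2's size factors (0.01 and 0.01). Without the injured nerve of animal cKO-126 the 105 genes called over the whole table at 2 wpc became 1, and again none of the 9 was called. The values of *C3* and *Serping1* were then -0.41 and -0.44, and that of *C5ar1* went from -0.09 to 0.03. At 4 wpc 8 of 9 lay below 0, with a median of -0.53, and the 3 C1q chains were at -0.61, -0.67 and -0.68 (SEs 0.28 to 0.29) for *C1qa*, *C1qb* and *C1qc* with adjusted p of 0.214, 0.173 and 0.18. These 3 were the only members with an unadjusted p under 0.05 in injured nerves, where 3667 genes had one at 4 wpc, and DESeq2 called no member in either. The injured *Lepr*-ctrl and *Lepr*-cKO nerves overlapped for every member. *C4b* was the exception in sign, at 0.30 (SE 0.24, adjusted p = 0.502).

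In healthy nerves at 4 wpc the log2 fold changes of the C1q chains and *C3ar1* were -0.56, -0.56, -0.66 and -0.71, each with an unadjusted p under 0.05 and an adjusted p of 1, and at 2 wpc none of the 9 had one. At 2 wpc 7 of the 9 values were above 0, with a median of 0.12. The 12 macrophage markers moved beside them, with medians of -0.65 in injured and -0.44 in healthy nerves at 4 wpc, all 12 below 0 and none called, and their part in the C1q values was not tested. The 8 Schwann cell markers were above 0 in injured nerves at 4 wpc, with a median of 0.66.

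The response to injury did not differ by genotype beyond the threshold for any member. The difference, *Lepr*-cKO minus *Lepr*-ctrl, ran from -0.60 (*Cfp*, SE 0.33) to 0.05 (*C5ar1*) at 2 wpc, with 8 of 9 below 0 (*C3* -0.20 and *Serping1* -0.04, or -0.61 and -0.47 without the injured nerve of animal cKO-126), and from -0.52 (*Cfp*, SE 0.36) to 0.31 (*C5ar1*, SE 0.45) at 4 wpc. No gene of the whole table was called at either time (0% each) although 797 and 2013 genes had an unadjusted p under 0.05, none of them a member, and DESeq2 called 2 and 4 genes. The SEs of these differences were 0.29 to 0.46. The C1q chains were at -0.05, -0.11 and -0.02 at 4 wpc, and all 3 were above 0 with the animal as a block (0.03, 0.01 and 0.15).

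**Figure D4:**
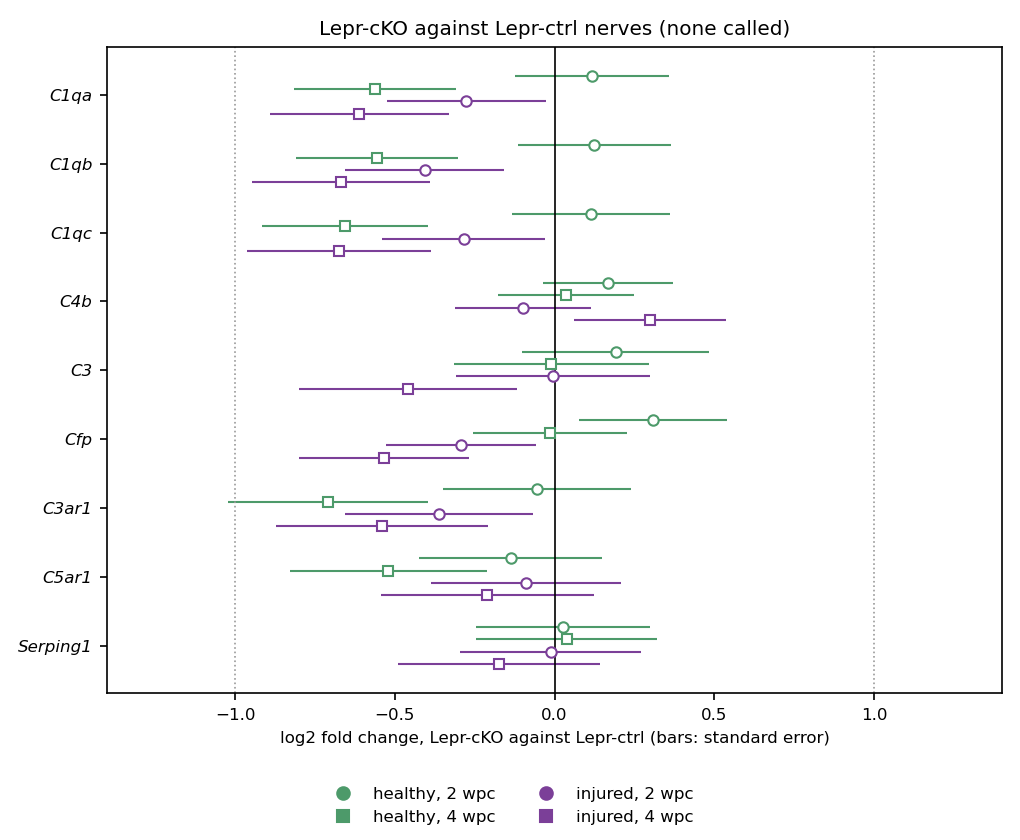
Difference between the genotypes on the log2 scale (points, positive where *Lepr*-cKO is higher) with its standard error (bars) for the 9 genes in healthy and injured nerves, with circles for 2 wpc and squares for 4 wpc. No gene was called, and at 4 wpc the C1q chains lie between -0.68 and -0.56 in both nerves.

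The rest of the pathway was read from lists of 46 further complement genes, of which 32 had enough counts to be tested and 14, among them the terminal components *C8a*, *C8b* and *C9*, had at most 9 counts in any library. Injury raised 12 and lowered 5 of the 32 in *Lepr*-ctrl at 2 wpc (19.8% and 14.3% of all tested genes). At 4 wpc it raised 16 and lowered 4 (20.1% and 15.9% of all tested genes). In *Lepr*-cKO it raised 10 and lowered 5 at 2 wpc (20.9% and 13.4%) and raised 12 and lowered 5 at 4 wpc (16.8% and 10.8%). The medians were 0.39, 0.97, 0.34 and 0.83. None was called between genotypes in either nerve or in the difference of the responses, where at most 0.569% of all tested genes were called.

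Most receptor genes rose. Of 7 tested receptor genes, members included, 6 rose at 2 wpc in each genotype, and at 4 wpc 7 rose in *Lepr*-ctrl and 6 in *Lepr*-cKO, with none called lower. The share of all tested genes called higher in these comparisons was 16.8% to 20.9%. *Itgax* and *Itgam*, the alpha chains of complement receptors 4 and 3, which bind fragments of deposited C3, went from 0.156 to 2.63 CPM in all healthy to 22.8 to 198 CPM in all injured nerves and from 0.808 to 3.25 to 6.34 to 31.4 CPM. In *Lepr*-ctrl at 2 wpc these were log2 fold changes of 7.48 (SE 0.69) and 3.29 (SE 0.36). The exons of *Itgam* overlap another gene over 68.7% of their length.

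Of the regulators on the cell surface, *Cd55*, which speeds the decay of C3 convertases, fell in all 4 comparisons, from 90.4 to 129 CPM in healthy to 8.07 to 59.1 CPM in injured nerves, by 2.79 (SE 0.26) at 2 wpc and 1.61 (SE 0.27) at 4 wpc in *Lepr*-ctrl and by 2.08 and 1.19 in *Lepr*-cKO. It was the only one of 7 tested membrane regulators, among them *Cd59a* and *Cr1l*, called in the injury comparisons. Of all tested genes, 10.8% to 15.9% were called lower in those comparisons. *Cd46*, a cofactor for the cleavage of C3b and C4b, had log2 fold changes of -0.87, -0.96, -0.85 and -0.75 with adjusted p of at most 0.000346, all short of the fold threshold.

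In the classical pathway 5 of 9 tested genes rose and 1 fell in each comparison. Of all tested genes, 16.8% to 20.9% rose and 10.8% to 15.9% fell. Beside C1q, the classical genes that rose were *C2*, the protease partner of C4 (1.78, SE 0.52 and 3.37, SE 0.58 in *Lepr*-ctrl at 2 and 4 wpc), and *C1s2* (1.41, SE 0.43 and 1.36, SE 0.47), which stayed at or under 1.34 CPM. *C2* shares 46.9% of its exon length with other genes. The genes of the C1 proteases that make up most of the counts, *C1ra* and *C1s1*, were not called, with log2 fold changes of -0.03 and 0.13 at 2 wpc in *Lepr*-ctrl.

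The lectin pathway, in which sugar-binding proteins start the cascade, was mixed. *Masp1*, its protease, fell in all 4 comparisons, from 6.32 to 12.1 CPM in healthy to 0.0557 to 3.22 CPM in injured nerves, and by 3.47 (SE 0.52) in *Lepr*-ctrl at 2 wpc. *Fcna*, a ficolin made by macrophages, rose in all 4, by 2.53 (SE 0.55) in the same comparison, from at most 0.833 CPM in any healthy nerve.

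In the alternative pathway *Cfb*, the protease subunit of the convertase, rose in *Lepr*-ctrl at both times (1.46, SE 0.56 and 2.07, SE 0.62) and in *Lepr*-cKO at 2 wpc (1.36, SE 0.52), and was 0.90 (SE 0.59, adjusted p = 0.199) in *Lepr*-cKO at 4 wpc. It stayed at or under 2.1 CPM, and 79.5% of its exon length overlaps another gene. *Cfd*, the adipocyte protease that activates factor B, ranged from 0 to 112 CPM in healthy and from 0 to 986 CPM in injured nerves, with its top value in the injured nerve of animal cKO-126, where 7 adipocyte markers summed to 1060 CPM against at most 321 CPM elsewhere among injured nerves. The part of adjoining fat in these values was not tested.

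Of the terminal genes, *C6* and *C7* had at most 3 counts in all healthy *Lepr*-ctrl libraries, so only a bound can be given: *C6* was at least 3.04 and *C7* at least 2.96 higher on the log2 scale at 2 wpc, against a floor of 3 counts in each library. These bounds cover *Lepr*-ctrl only. Over all healthy nerves *C7* reached 3.89 CPM, inside the 0.367 to 7.87 CPM of the injured nerves. Among soluble regulators, *C4bp* was at most 0.607 CPM in any library.

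**Figure D5:**
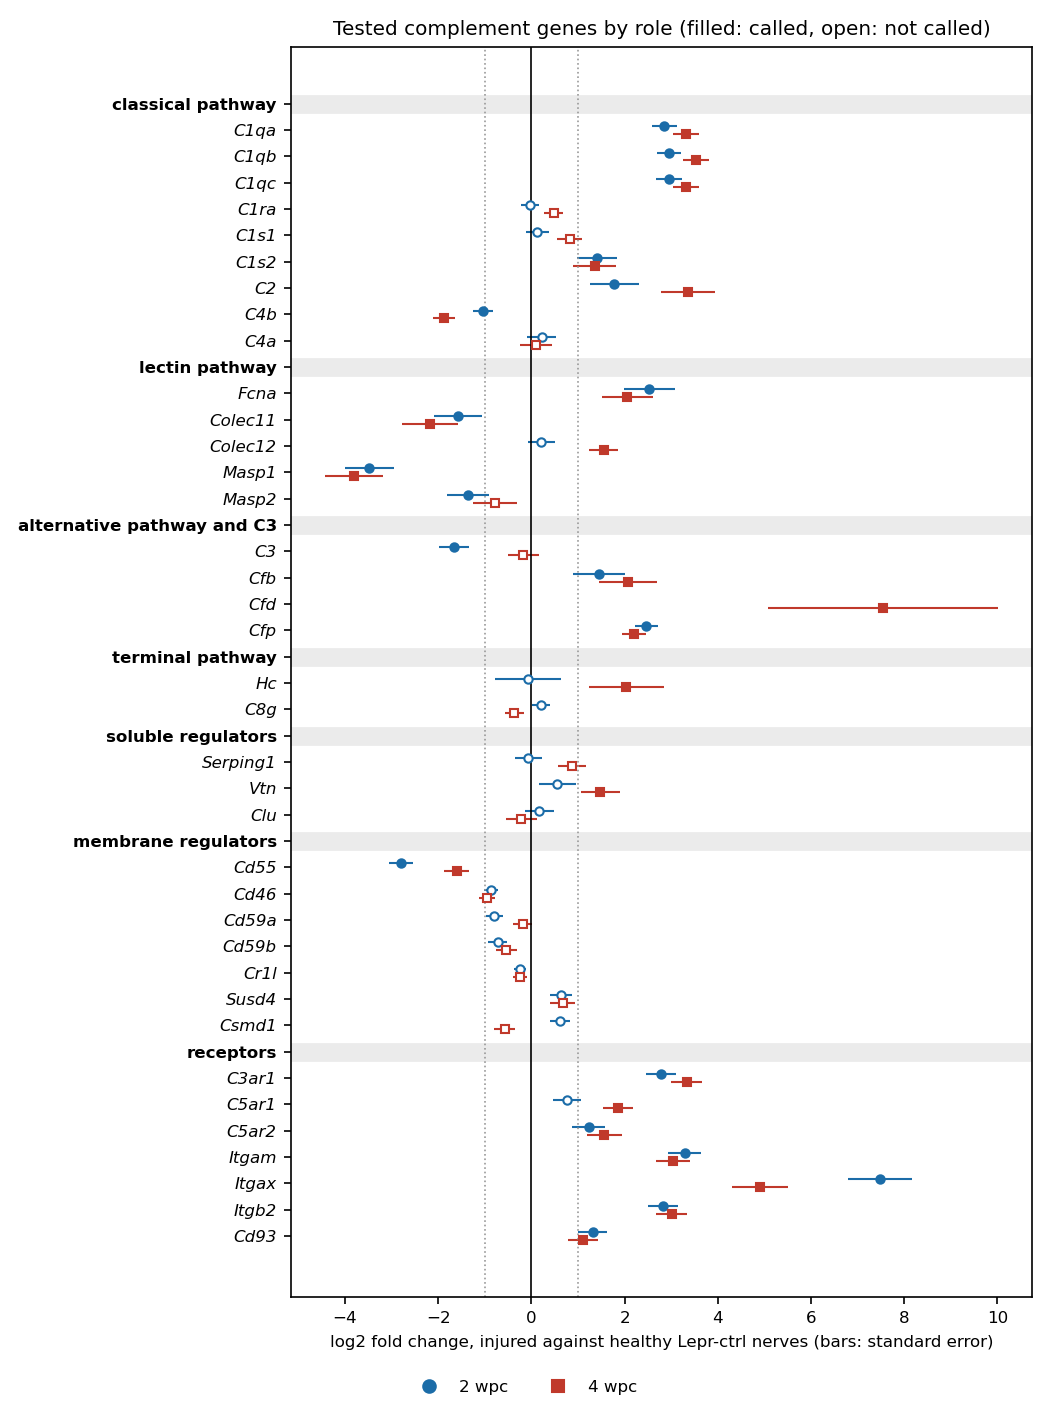
Log2 fold change of injured against healthy *Lepr*-ctrl nerves with its standard error for tested complement genes by role, with circles for 2 wpc and squares for 4 wpc, filled where called. Receptors lie to the right of 0 at both times, *Masp1* and *Cd55* to the left, and no point is drawn where a group was at the floor of 3 counts (*C6*, *C7*, *C4bp*, and *Cfd* at 2 wpc).

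The genes most like each member were taken as those with the smallest root mean square (RMS) difference of log2 CPM over the 39 libraries, each gene centred on its own mean. The 3 C1q chains were each other's nearest, at 0.12 to 0.14, against an SD of 1.53 to 1.59 of their own profiles, and *Fcer1g* was the nearest gene outside the 9 for each chain (0.239, 0.181 and 0.216 for *C1qa*, *C1qb* and *C1qc*) and for *C3ar1* (0.273). *C5ar1* was nearest to *Csf1r* (0.379), *C5ar2* (0.406) and *Cd14* (0.431), and *Cfp* to *Dnase2a* (0.261). *C4b* was nearest to *Gm13111* (0.232), *Nat8l* (0.241) and *Lgi4* (0.254), *C3* to *Spp1* at a wider 0.427, and *Serping1* to *Prelp* (0.247), *C1ra* (0.259) and *C1s1* (0.288). These likenesses mix the difference between groups with that within them. On deviations from the group means, 2 of the 3 nearest genes stayed for *C1qa*, *C1qc*, *C3ar1* and *C5ar1*, 1 for *C1qb* and *Cfp*, and none for *C3*, *C4b* and *Serping1*.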

How the data were processed

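The authors sequenced RNA of sciatic nerve endoneuria (TruSeq RNA v2, a kit that does not mark strand, single 50-base reads), aligned it with STAR 2.5 to GRCm38 and counted reads per Ensembl gene with featureCounts 1.5.0-p1 after bcl2fastq 2.20.0.422. The deposited values are raw counts, 1 table per nerve. The strand setting and the handling of reads with several matches are not given in the sources used here. Names came from GENCODE mouse release 21 (18433 of 18442 tested genes matched).

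Counts were fitted with edgeR 4.0.16 (R 4.3.3, limma 3.58.1) by its quasi-likelihood test with TMM factors in 1 model of 39 libraries and 8 groups, after filterByExpr with a minimum of 10 counts (15 in total). The 12 comparisons were adjusted each over all tested genes. SEs are the absolute log2 fold change divided by the square root of F, log2 CPM used a prior count of 2, and 3 counts per library set the floor. The steps were tested on simulated data. CPM values are point estimates, and each group's SD carries the spread between animals.

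The 9 members and all lists were chosen with earlier results of these data known. Named were the members, the 2 tested genes of each pathway list with the largest change in *Lepr*-ctrl at 2 wpc, the 3 nearest profiles, and values beside a result. One gene named by this rule is not reported here. *C1ra*, *C1s1*, *C4a*, *Cd59a*, *Cr1l*, *C8a*, *C8b*, *C9*, *Lyz2*, *Mertk* and *Cd163* were named after their values were seen, and so were the 4 nerves with the most *C3*.

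The 2 nerves of a mouse carry 1 animal number, which pairs them. Over 5000 genes their deviations from the group means correlated at -0.116 to 0.567, above 0.1 in 14 of 17 pairs. The alternatives were DESeq2 1.42.0, its size factors, other expression filters, only the groups compared, a term for sex (25 libraries with female and 14 with male marker counts), the animal as a block, no fold threshold, each library left out, CPM without TMM, transcript length and deviations from group means.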

Additional observations from a re-analysis of the deposited data

Results flagged for a closer look

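Of 72 gene and group combinations looked at, 12 held a library far from the others of its group (Dixon's test at the 95% level). Chance alone gives about 1 in 20 for independent, normally spread values. The CPM were not logged and genes of the same libraries move together, so the 12 cannot be set against that rate.

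In injured nerves the high libraries were those of animal ctrl-131 for *C3* (242 CPM, the next 112 CPM) and of animal ctrl-144 for *Cfp* (107 CPM, the next 61.1 CPM) in *Lepr*-ctrl at 2 wpc. In *Lepr*-cKO at 2 wpc they were those of animal cKO-126 for *C3* (261 CPM, the next 120 CPM) and *Serping1* (536 CPM, the next 237 CPM). At 4 wpc they were those of *Lepr*-ctrl animal ctrl-171 for *C3* (576 CPM, the next 385 CPM) and *Cfp* (101 CPM, the next 55.4 CPM) and of *Lepr*-cKO animal cKO-169 for *Serping1* (722 CPM, the next 308 CPM).

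In healthy nerves *Lepr*-ctrl animal ctrl-123 was high at 2 wpc for *C1qb* (44.2 CPM, the next 30.4 CPM) and *C1qc* (36 CPM, the next 24.2 CPM), *Lepr*-cKO animal cKO-138 for *C3ar1* (10.9 CPM, the next 6.41 CPM), and *Lepr*-cKO animal cKO-177 at 4 wpc for *Cfp* (17.3 CPM, the next 13.7 CPM). The healthy nerve of *Lepr*-ctrl animal ctrl-171 at 4 wpc was low for *C1qa* (19.2 CPM, the next 34.5 CPM), while its injured nerve had the most *C1qa* of its group.

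The response of *C3* to injury in *Lepr*-ctrl mice differed between 4 and 2 wpc by 1.489 on the log2 scale, by a test of that difference (edgeR adjusted p = 0.0294). The call was lost with the animal as a replicate block (adjusted p = 0.0833) and without any 1 of 5 libraries (adjusted p from 0.0513 to 0.0878).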

How the results depend on the processing

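The counts of called members stayed within 1.5 times the reported ones in 90 of 92 comparisons with another setting. The exceptions were in the change of the *Lepr*-cKO response between the times, where 1 member, *C5ar1*, was called with DESeq2 (1.34, adjusted p = 0.0491) and 1, again *C5ar1*, with the animal as a replicate block, against 0 as reported. With the block in *Lepr*-ctrl the count stayed at 1, with *C5ar1* in place of *C3*. The block changed no other call, and none was possible between genotypes, which are different mice. Leaving out each of the 39 libraries gave 0 to 2 members for the change of the *Lepr*-ctrl response between the times (2 without the injured nerve of animal ctrl-144 or ctrl-131) and 0 to 1 for that of *Lepr*-cKO. It gave 6 to 7 for injury in *Lepr*-ctrl at 2 wpc, 7 to 8 for the other 3 injury comparisons and 0 for each comparison or difference of genotypes. *Serping1* was called in *Lepr*-ctrl at 4 wpc without the injured nerve of animal ctrl-170 (1.01) and *C5ar1* in *Lepr*-cKO at 2 wpc without the healthy nerve of animal cKO-138 (1.00).

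Values near 0 changed sign, none of them called. For *C3* between genotypes in injured nerves at 2 wpc the value was 0.012 with DESeq2 and with its size factors, 0.028 without an expression filter, 0.004 with 10 counts in every library, 0.03 with only the groups compared and 0.023 with a term for sex. For *Serping1* there it was 0.007, 0.007, 0.022, 0.026 and 0.012 under the same settings, the fourth of them excepted. The term for sex also gave 0 for *Serping1* in healthy nerves at 2 wpc, 0.033 for *C3* in healthy nerves at 4 wpc, 0.013 for *Serping1* in the difference of responses at 2 wpc, and 0.034 for *C1qa* and 0.067 for *C1qc* in that at 4 wpc. The replicate block gave 0.126 for *Serping1* under injury in *Lepr*-ctrl at 2 wpc, and 0.033, 0.011 and 0.153 for *C1qa*, *C1qb* and *C1qc* in the difference of responses at 4 wpc. The causes were not tested.

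Leaving out single libraries gave these ranges where the sign changed. Between genotypes in healthy nerves at 4 wpc they were -0.162 to 0.096 for *C3*, -0.031 to 0.107 for *C4b*, -0.106 to 0.033 for *Cfp* and -0.019 to 0.095 for *Serping1*, and at 2 wpc -0.015 to 0.279 for *C1qa*, -0.03 to 0.257 for *C1qb*, -0.329 to 0.121 for *C3ar1* and -0.041 to 0.12 for *Serping1*. Between genotypes in injured nerves at 4 wpc they were -0.012 to 0.463 for *C4b* and -0.599 to 0.001 for *Serping1*, and at 2 wpc -0.413 to 0.351 for *C3*, -0.225 to 0.171 for *C4b*, -0.272 to 0.134 for *C5ar1* and -0.444 to 0.311 for *Serping1*. In the difference of responses between genotypes at 4 wpc they were -0.201 to 0.18 for *C1qa*, -0.234 to 0.063 for *C1qb*, -0.158 to 0.204 for *C1qc* and -0.031 to 0.443 for *C4b*, and at 2 wpc -0.606 to 0.157 for *C3*, -0.403 to 0.001 for *C4b*, -0.134 to 0.273 for *C5ar1* and -0.471 to 0.284 for *Serping1*. For *Serping1* under injury at 2 wpc they were -0.356 to 0.12 in *Lepr*-ctrl and -0.524 to 0.051 in *Lepr*-cKO, and for *Cfp* in the change between the times in *Lepr*-cKO -0.358 to 0.085.

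CPM without TMM factors moved all 72 group means by less than 1 SD, and transcript length changed 5 of 72 places in the order of levels. The groups held 4 to 6 nerves, and those injured at 4 wpc were the fewest and had the smallest libraries. The parts of depth and of the spread between animals in the SEs were not separated.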
